A study of Mus musculus with 6 samples.

Results

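Taf9 (Entrez 108143) encodes a subunit of the general transcription machinery, and its exon bins stood in both of the exon usage tables that the authors deposited. All rows carrying the gene name Taf9 were taken: bins 3, 4, 5 and 6 in each table, which are 4 of the 249 bins listed for the knockdown of Pnky, 4 of the 958 listed for the knockdown of Ptbp1, and 4 of the 118 bins listed in both. An exon bin is an exon or part of one, numbered within its gene, the first bin having no number. The authors listed a bin when its usage relative to the rest of its gene differed from control at an adjusted p under 0.01, and the Taf9 rows were selected on that measured usage in these libraries. The direction and size of each row below therefore describe the values that chose it, and no test is made of them.

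The libraries came from cultured cells of the mouse ventricular-subventricular zone, the neural stem cell niche beside the lateral ventricles, derived from C57/B6 animals at postnatal day 5 to 7 and kept in medium with serum, EGF and FGF. There were 3 groups of 2 libraries. The shCtrl cells carried a luciferase hairpin, the shPnky cells one directed at Pnky, a long noncoding RNA, and the shPtbp1 cells one directed at Ptbp1, the gene of an RNA-binding protein. Hairpins were expressed from the PSICO-R vector and the cells sorted for GFP, or for GFP and mCherry together, and the labels do not say which group had which sort. The labels do not say whether replicates were separate animals or cultures, so the spread shown here may be technical. Each knockdown rests on 1 hairpin name, so an effect of the hairpin on other transcripts cannot be told apart from the knockdown. Of 8 markers of neural stem cells and astrocytes, 3 were listed in each table (Gfap, Vim and Prom1 for shPnky, Gfap, Egfr and Prom1 for shPtbp1), and of 11 markers of other cell types 0 were listed. The tables hold only called bins, 0.155% of those tested for shPnky and 0.598% for shPtbp1, so they give no levels for the other markers, and a marker without a row says nothing of the cells present.

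TAF9 is a histone-fold protein that pairs with TAF6. It is a member of TFIID, the complex that recognises core promoters and helps place RNA polymerase II, and of SAGA, a coactivator that acetylates and deubiquitinates histones. PTBP1 binds pyrimidine-rich RNA and represses many exons that neurons include, and the PTBP1-associated transcript Pnky is studied as a regulator of neural stem cells. A locus of this kind matters for exon counting because Taf9 overlaps Ak6, which encodes a nuclear adenylate kinase, and has exons in common with it.

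In the RefSeq gene table (GRCm38.p6) Taf9 lies on chr13:100651343-100656060 and Ak6 on chr13:100651343-100666415, both on the plus strand, with the same start in that table. The GENCODE M21 model of Ak6 used for the blocks begins further upstream, at base 100650979. The exons of the RefSeq transcripts of Taf9, drawn from GENCODE M21, merge into 4 blocks, and those of Taf9 and Ak6 together merge into 7. Cut at every annotated boundary, they give 4 and 8 parts. Counted from 0, as the unnumbered first bin implies, Taf9 alone would end at number 3 either way, and the union would end at number 6 by blocks and at 7 by parts. The fourth block of the union, chr13:100655034-100656059, holds the whole Taf9 coding sequence and belongs to no RefSeq Ak6 transcript. The last 3 blocks, chr13:100663895-100663953, chr13:100664051-100664196 and chr13:100665827-100666359, are 59, 146 and 533 bases long, code for Ak6 and are not exons of RefSeq Taf9.

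**Figure D1:**
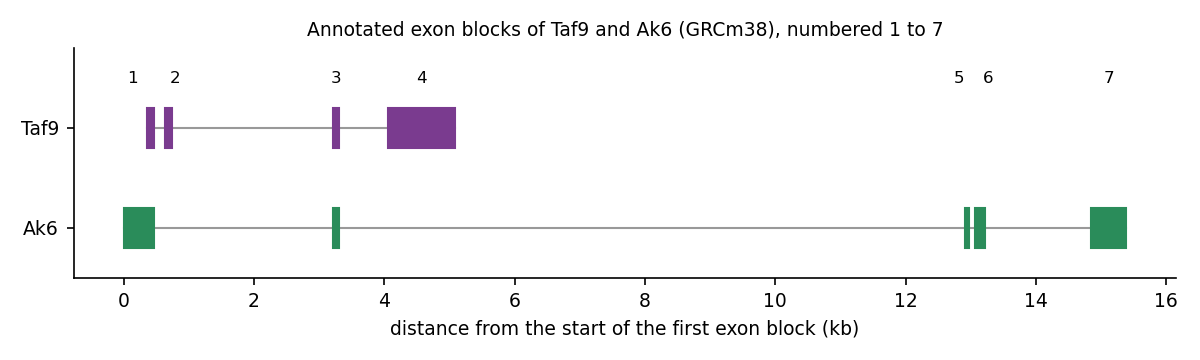
Exon blocks of Taf9 (upper row) and Ak6 (lower row) in GRCm38, drawn to scale against the distance in kb from the first annotated base; numbers above the rows count the 7 merged blocks in order. Blocks 5, 6 and 7 lie in Ak6 only, blocks 2 and 4 in Taf9 only, and blocks 1 and 3 in both. The upstream end of block 1 is in Ak6 only.

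The highest listed Taf9 bin was number 6. A listed bin number beyond the exonic parts of the gene's own RefSeq model occurred in 3 of 174 genes with a model in the shPnky table (Rpl5, Sfmbt1 and Taf9). In the shPtbp1 table it occurred in 4 of 594 (Ece2, Rpl5, Taf9 and Tnrc6b). Only a gene with a high-numbered bin among the calls could show this. The counts therefore do not measure how often the authors' numbering departs from these models. Ak6 had no row of its own in either table. The deposited rows hold no coordinates and the files' build is mm9, so the bins were not placed on these exons, and a count under the name Taf9 cannot be told apart from a count of Ak6. Reads of the paralog Taf9b on chromosome X and of the pseudogene Taf9-ps on chromosome 4, 993 bases long, are a further uncertainty of the Taf9 rows.

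Besides block 2, an exon of Taf9 only, the annotated transcripts are separated by the splice choice after the exon chr13:100654191-100654283, which both genes use. The junctions are shown because they mark where the annotated transcripts part after that exon; each has 15 bases of the shared exon in lower case and 15 bases of the next exon in capitals, 5′ to 3′ on the plus strand of GRCm38, from the GENCODE M21 transcripts.
Taf9 junction: atctagctcgagaagTCTGATCAGCGGATA
Ak6 junction: atctagctcgagaagGGCAGTTATACGACG
The 2 internal coding exons past the Taf9 end are given whole, since they carry sequence that no RefSeq Taf9 exon contains.
Ak6 exon at chr13:100663895-100663953: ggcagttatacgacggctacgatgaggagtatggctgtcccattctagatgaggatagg
Ak6 exon at chr13:100664051-100664196: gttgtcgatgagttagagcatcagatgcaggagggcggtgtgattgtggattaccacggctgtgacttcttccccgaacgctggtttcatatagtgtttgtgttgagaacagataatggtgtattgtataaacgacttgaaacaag

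The authors' tests called 0.155% of 160603 bins for shPnky and 0.598% of 160290 bins for shPtbp1, numbers of tested bins recovered from their p and adjusted p-values. Against this background 4 Taf9 bins were listed for each knockdown, by the rule itself. Of 71 genes with a bin in both tables, 5 had at least 4 such bins, Taf9 among them. In the authors' deposited table for shPnky, bin 3 ranked 8 of 249 by adjusted p (4.16e-36), with bin 5 at rank 57 (6.66e-09), bin 4 at rank 67 (1.01e-07) and bin 6 at rank 108 (2.56e-05). For shPtbp1, bin 3 ranked 29 of 958 in the authors' deposited table (adjusted p = 4.63e-60), and bins 5, 6 and 4 followed at ranks 120, 149 and 220. The Taf9 rows were well inside the limit for listing, near which the last bins were Ero1lb bin 15 in the shPnky table and Puf60 bin 7 in the shPtbp1 table, each at 0.00995 in the authors' deposited tables.

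Bin 3 was used less and bins 4, 5 and 6 were used more in both knockdowns. Bin 3 held 11865 and 10899 raw reads in the shCtrl libraries, 11452 and 8516 in shPnky, and 8280 and 8291 in shPtbp1. Bin 4 held 1120 and 1016 reads in shCtrl, 1507 and 1103 in shPnky, and 1149 and 1156 in shPtbp1. Raw counts follow depth: the shared bins of all genes summed to between 770455 reads (shPnky replicate 2) and 1081551 reads (shPnky replicate 1), so the raw counts of both bins spread more between the shPnky libraries than within any other group.

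Bin 5 held 1484 and 1332 reads in shCtrl, 1962 and 1431 in shPnky, and 1565 and 1571 in shPtbp1. Bin 6 held 2731 and 2628 reads in shCtrl, 3620 and 2819 in shPnky, and 2988 and 2883 in shPtbp1. In raw reads, bin 6 was higher in every knockdown library than in either control, while bins 4 and 5 overlapped the controls in shPnky replicate 2. The counts of the 118 shared bins in the shCtrl libraries were identical in both tables, so both comparisons rest on the same controls.

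Shares within the gene remove depth. Of the reads in the 4 listed Taf9 bins, bin 3 took 68.98% and 68.66% in shCtrl, 61.77% and 61.40% in shPnky, and 59.22% and 59.64% in shPtbp1. The mean share was thus 68.82% ± 0.23 (SD, n = 2) in control, 61.58% ± 0.26 (SD, n = 2) in shPnky and 59.43% ± 0.30 (SD, n = 2) in shPtbp1. The difference from control was -7.23 percentage points for shPnky and -9.39 for shPtbp1. The knockdown libraries lay below both controls, which the choice of the rows on this contrast fixes. Counting error alone gives this share an SE of 0.35 to 0.42 percentage points per library, so the SD of each pair was no larger than sampling noise. These shares leave out the unnumbered bin and bins 1 and 2, which were in neither table.

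The gains were spread over the other bins. Bin 4 went from 6.46% ± 0.08 to 8.04% ± 0.12 in shPnky and 8.27% ± 0.07 in shPtbp1 (SD, n = 2). Bin 5 went from 8.51% ± 0.17 to 10.45% ± 0.19 and 11.25% ± 0.08 (SD, n = 2). Bin 6 went from 16.22% ± 0.48 to 19.93% ± 0.57 and 21.05% ± 0.45 (SD, n = 2). For each of these bins the 2 libraries of either knockdown lay above both controls, again as the choice of rows fixes. The shPtbp1 mean was above the shPnky mean in each.

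**Figure D2:**
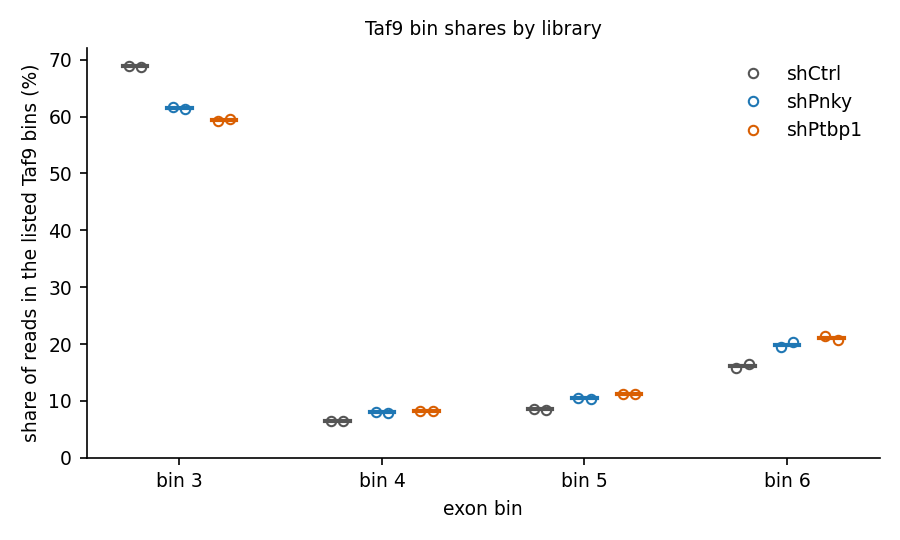
Share of the reads in the listed Taf9 bins (percent, y axis) held by each bin (x axis), with 1 open circle per library and a bar at the mean of the 2 libraries; grey is shCtrl, blue shPnky and orange shPtbp1. Bin 3 lies at a mean of 68.82% in control, 61.58% in shPnky and 59.43% in shPtbp1, and bins 4, 5 and 6 are each higher in both knockdowns.

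Expressed against bin 3, the other bins shifted by nearly the same factor. For every 100 reads of bin 3, bins 4 to 6 together had 44.96 and 45.66 reads in shCtrl, 61.90 and 62.86 in shPnky, and 68.86 and 67.66 in shPtbp1. The ratio in shPnky was 1.38 times that in shCtrl, with 1.39 for bin 4, 1.37 for bin 5 and 1.37 for bin 6. In shPtbp1 it was 1.51 times the control ratio, with 1.48 for bin 4, 1.53 for bin 5 and bin 6 between them.

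Among themselves, bins 4, 5 and 6 kept their proportions. Of the reads in these 3 bins, bin 4 took 20.71% ± 0.41 in shCtrl, 20.93% ± 0.46 in shPnky and 20.38% ± 0.32 in shPtbp1 (SD, n = 2). Bin 5 took 27.29% ± 0.74, 27.20% ± 0.67 and 27.73% ± 0.39 in the same order (SD, n = 2). Bin 6 took 52.00% ± 1.15, 51.86% ± 1.13 and 51.90% ± 0.72 (SD, n = 2). Each difference of a knockdown mean from the shCtrl mean was smaller than the SD between the shCtrl replicates, and neither knockdown lay wholly outside the range of the controls for any of the 3 bins. The shift in Taf9 usage was therefore between bin 3 and the block of bins 4 to 6, and no shift inside that block was detectable with 2 libraries a group.

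**Figure D3:**
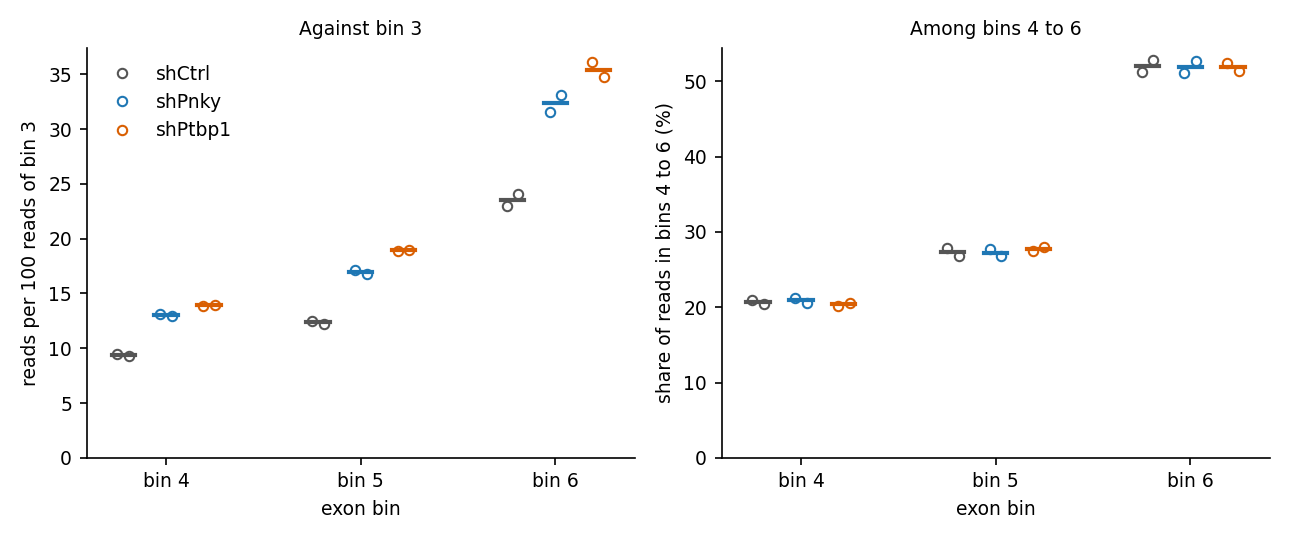
Left, reads of bins 4, 5 and 6 per 100 reads of bin 3; right, the share (percent) of each among the reads of bins 4 to 6. Circles are libraries, bars the mean of 2, with colours for shCtrl (grey), shPnky (blue) and shPtbp1 (orange). On the left both knockdowns lie above control for each bin, and on the right the groups overlap.

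The authors' deposited tables give the same directions on the scale of their fitted usage values, whose log2 ratio is the listed fold. For shPnky the log2 folds listed in the authors' deposited table were -0.05 for bin 3, 0.15 for bin 4, 0.14 for bin 5 and 0.13 for bin 6. For shPtbp1 they were -0.08, 0.17, 0.19 and 0.17 in the authors' deposited table. Over all bins the median absolute log2 fold was 0.11 in the shPnky table and 0.16 in the shPtbp1 table, so bin 3 was below that median in both. The fitted values are not proportional to reads. In the shPnky table the fitted shCtrl usage was 133.2 for bin 3 and 50.3 for bin 4, against 11865 and 1120 reads in shCtrl replicate 1. A listed fold is therefore not a ratio of read shares.

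A usage shift can come from fewer reads in one bin, more in the others, or both, so the counts were also scaled between libraries with TMM, a scaling factor per library computed here from the 118 shared bins. After scaling, the log2 count of bin 3 relative to the shCtrl mean was -0.33 and -0.28 in the shPnky libraries and -0.55 and -0.54 in the shPtbp1 libraries, while the controls lay at -0.02 and 0.02. On this scale bin 3 changed by -0.31 (SE 0.030) in shPnky and by -0.55 (SE 0.030) in shPtbp1. Both changes are log2 differences of counts, not of usage, and came from the contrast that chose the rows. Each SE of a log2 count difference is its absolute value divided by the square root of the edgeR F statistic. It draws on variance shared across the called bins and is not the spread of the 2 libraries. For the differences from control it is not read as a test.

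Bins 4, 5 and 6 were at 0.17 (SE 0.044), 0.15 (SE 0.040) and 0.15 (SE 0.054) in shPnky on the same log2 scale. In shPtbp1 they were at 0.02 (SE 0.044), 0.07 (SE 0.040) and 0.04 (SE 0.054). On this scale bin 3 was thus the bin farthest from control in both knockdowns, and the values of the other 3 bins were larger in shPnky than in shPtbp1. Scaling to the sum of listed reads moved the median of the shared bins in shPtbp1 from 0.05 to 0.23 and put bin 3 at -0.36 and bins 4, 5 and 6 at 0.20, 0.25 and 0.22. How the shift divided between bin 3 and the other bins therefore depended on the scaling, which could rest on called bins only; bin 3 was below control under each of the 4 scalings, and the other bins were at or above it. In bulk cultures, fewer cells that use a bin and fewer of its transcripts per cell cannot be told apart.

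**Figure D4:**
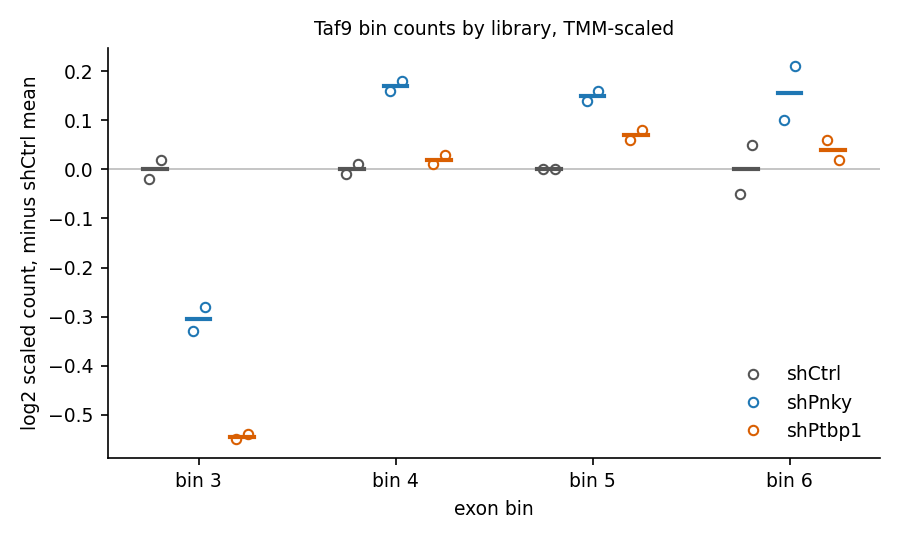
TMM-scaled log2 count of each Taf9 bin minus the mean of the 2 shCtrl libraries (y axis), with 1 circle per library and a bar at the group mean; grey is shCtrl, blue shPnky and orange shPtbp1. Bin 3 lies lower in shPtbp1 (-0.55 and -0.54) than in shPnky (-0.33 and -0.28), and bins 4 to 6 lie near control in shPtbp1.

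The knockdowns were compared with each other, a contrast that neither deposited table tested, in edgeR's quasi-likelihood test over all 118 bins listed in both tables. Of these bins 62.7% differed in count between shPnky and shPtbp1 at an adjusted p under 0.05, so a call here is common. All the bins tested had been called against control in these same libraries, and scaling and dispersion were estimated from them alone. The alternatives below draw on the same bins and libraries, so they cannot show what this selection does to the p-values. Of the Taf9 bins, 2 of 4 were called. Bin 3 was higher in shPnky than in shPtbp1 by 0.24 on the log2 scale (SE 0.030, edgeR adjusted p = 0.000331), in 2 of 2 libraries, and the call was made in all 12 alternatives run (adjusted p from 1.62e-09 to 0.00768, log2 difference from 0.13 to 0.26).

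Bin 4 was higher in shPnky by 0.15 (SE 0.044, edgeR adjusted p = 0.0212), a call lost in 5 of the 12 alternatives, among them the fits without shPnky replicate 2 (adjusted p = 0.0513) and without shPtbp1 replicate 1 (adjusted p = 0.111), with an adjusted p from 0.021 to 0.565 over all 12. Scaled by the sum of listed reads, the difference was 0.04 on the log2 scale, and in the other 4 fits that lost the call it was between 0.13 and 0.16. Bins 5 and 6 differed by 0.08 (SE 0.040, edgeR adjusted p = 0.117) and 0.11 (SE 0.054, edgeR adjusted p = 0.123) and did not pass.

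Whether the use of each bin within Taf9 differed between the knockdowns was tested with edgeR's diffSpliceDGE on the 65 shared bins of genes with at least 2. In this test 27.7% of the bins passed, and 0 of the 4 Taf9 bins did, at an adjusted or an unadjusted p under 0.05. Relative to the gene's own change, the natural-log difference of shPnky over shPtbp1 was 0.04 for bin 3 (edgeR adjusted p = 0.433), -0.03 for bin 4 (0.731), -0.07 for bin 5 (0.252) and -0.06 for bin 6 (0.295). These natural logs are not on the log2 scale of the count differences above. The share of bin 3 was 61.40% or more in shPnky and 59.64% or less in shPtbp1. This difference in use did not pass a test with 2 libraries a group. The shares of the 4 bins add up to the whole and are not independent. Overlap of shares between the knockdowns was not counted over the other shared bins. A p above the threshold does not show that the knockdowns act alike on Taf9.

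Genes that work with TAF9 were looked up in the tables, which hold 0.155% (shPnky) and 0.598% (shPtbp1) of the bins tested, or 175 and 602 genes, so few calls are the background for any list. Of 18 TFIID genes, Taf9 was the 1 with a listed bin in either table. Of 24 SAGA genes, 2 were listed for shPtbp1, Taf9 and Eny2, and 1 for shPnky, Taf9. Taf9 is in these counts by the rule itself. Without it, 0 TFIID genes were listed in either table, and 0 SAGA genes for shPnky and 1 for shPtbp1. The background shares are of bins and these counts are of genes. The number of genes tested is not in the deposited rows, so no share of genes can be set beside them. Eny2, a subunit of the SAGA deubiquitinase module, had a log2 fold of 0.05 for bin 4 in the authors' deposited table (adjusted p = 8.11e-06), with 7492 and 6858 reads in shCtrl and 6940 and 6961 in shPtbp1. Of 29 genes of the basal factors and RNA polymerase II, 0 had a bin in either table of DEXSeq calls. The uncalled bins of these genes were not analysed here.

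The bins of other genes whose counts moved most like bin 3 of Taf9 were found by the Euclidean distance between log2 TMM-scaled counts, centred on the shCtrl mean, over the 4 knockdown libraries and among the 118 shared bins, 1 per gene. The nearest was the unnumbered bin of Syncrip, which encodes an hnRNP-like RNA-binding protein, at a distance of 0.12, with mean log2 counts of -0.33 in shPnky and -0.58 in shPtbp1. Bin 1 of Lcorl followed at 0.14, then the unnumbered bins of Tmem30a, a flippase subunit gene, and Gm14326 and bin 3 of Ensa, a phosphatase inhibitor gene, each at 0.17. The median over the other genes, taking the closest bin of each, was 0.77. Bins 4, 5 and 6 of Taf9 itself were at 1.05, 1.08 and 1.06 from bin 3. These rows were listed for usage shifts opposite to that of bin 3, so a distance from it follows from the choice of rows. They were measured singly, whereas the median takes the closest bin of each gene, so the values are not set against each other.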

How the data were processed

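RNA-seq of 6 libraries was tested by the authors for exon usage with DEXSeq, per the file headers, in 1 table per knockdown that keeps only rows below an adjusted p of 0.01. The deposited columns are raw counts of 4 libraries, a p-value before and after adjustment, a log2 fold, and scores of the fitted model (usage values, dispersion, test statistic). Per the submitters' processing notes, reads were handled on build mm9 with tools that include TopHat2 2.0.10 and Cuffdiff 2.1.1. How bins were defined and counted is not given in the sources used here. Bin numbers were read from row names.

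The members and gene lists were chosen with earlier results of these data known. Control columns (luci) were matched to shCtrl by number. Counts per bin were tested in edgeR 4.0.16 (R 4.3.3; TMM, glmQLFTest, diffSpliceDGE, Benjamini-Hochberg over all bins tested, all 6 libraries in 1 fit), after a check on simulated data. The simulated log2 changes were larger than those of Taf9, and the selection of called bins was not imitated. The check therefore does not bear on differences as small as those of Taf9. DESeq2 1.42.0 was an alternative. Shares are percent of the reads in listed Taf9 bins, computed in Python 3.11.15. Genes named are Taf9, called members of the pathway lists, and the 5 genes nearest to bin 3; genes of bins beyond their model and at the limit of listing were named after their values were seen. The listed Taf9 reads per library lay between 13869 and 18541, which gives the share of bin 3 a binomial counting error (SE) of 0.35 to 0.42 percentage points. Exon models came from GENCODE M21 (GRCm38) transcripts matched to RefSeq, used for annotation only.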

Additional observations from a re-analysis of the deposited data

How the results depend on the processing

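All 4 Taf9 bins stayed listed in both tables at an adjusted p under 0.001 and at a mean count of at least 50. Leaving out each library in turn, the share of bin 3 changed by -7.42 to -7.05 percentage points in shPnky and by -9.60 to -9.18 in shPtbp1. In the direct comparison of shPnky with shPtbp1, the number of Taf9 bins with different counts was 2 and became 1 when scaled by the sum of listed reads, with only the 4 knockdown libraries and with DESeq2; leaving out 1 library gave 1 to 2. With the sum of listed reads, bins 3 and 4 fell to 0.130 and 0.038, and bins 5 and 6 changed sign, to -0.028 and -0.002. This scaling leaves out the TMM factors, which were 0.985 and 0.998 in shPnky and 1.0656 and 1.0745 in shPtbp1. Why these factors differed between the groups was not tested. With the replicate block the numbers were 2 for counts and 0 for usage, as without it; the deviations of same-numbered libraries correlated at -0.01, 0.16 and 0.01 over the 118 bins, so the numbers were not taken as a pairing. The usage comparison gave 0 Taf9 bins in each of its 11 alternatives; DESeq2 was run on counts only. Scalings of the knockdown changes against shCtrl, other than TMM over shared bins, were chosen after seeing the data.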
